A study of Mus musculus with 9 samples.

Results

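The mitochondrially encoded genes are the genes whose symbol starts with mt-. All 37 had a row in the count files, among 47728 genes in all: 13 protein-coding genes, 2 ribosomal RNA genes and 22 transfer RNA genes. They were followed in C2C12 cells, a mouse myoblast line that forms muscle fibres in culture when serum is lowered. PolyA RNA was sequenced from a Cry2 knockdown, a Cry1 knockdown and a control, each collected at days 0, 3 and 5. Cells of all 9 libraries were grown with fetal bovine serum. Those collected at days 3 and 5 were switched at day 0 to medium with horse serum that also held insulin, transferrin and selenium. A difference between day 0 and the later days therefore cannot be told apart from the change of medium. The labels do not say how either knockdown was made, nor what the control cells received. There was 1 library for each genotype and day. No value therefore has a replicate, and a test over the 3 days of a genotype or the 3 genotypes of a day measures how far those libraries disagree.

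Mitochondrial DNA is a small circular genome inside the organelle, present in many copies per cell. Both of its strands are transcribed almost end to end, and the long transcripts are cut at the transfer RNAs that punctuate them, which frees the messenger and ribosomal RNAs. The messenger RNAs encode subunits of the respiratory chain and ATP synthase, which muscle cells use heavily once they differentiate: here 7 for complex I (mt-Nd1 to mt-Nd6 and mt-Nd4l), 1 for complex III (mt-Cytb), 3 for complex IV (mt-Co1 to mt-Co3) and 2 for complex V (mt-Atp6 and mt-Atp8). Among the protein-coding genes, 12 lie on the plus strand of the annotation and 1, mt-Nd6, on the minus strand. Messenger RNAs of mitochondria carry short polyA tails in mammals, so they enter polyA libraries.

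Many mitochondrial sequences also stand in the nuclear genome as inactive copies, and a read that fits both places cannot be assigned to either. In the annotation of the authors' build, mm10, 7 unprocessed pseudogenes form a run at chr1:24611535-24616197, 4663 bases on the minus strand, that matches 4662 bases of the mitochondrial genome at chrM:6381-11042. The run covers the end of mt-Co1, the whole of mt-Co2, mt-Atp8, mt-Atp6, mt-Co3, mt-Nd3 and mt-Nd4l, and the start of mt-Nd4. Of the 50-base words of mt-Co2, 100% also stood in an annotated nuclear gene. The share was 99.5% for mt-Atp6, 99.9% for mt-Co3, 98.0% for mt-Nd3 and 98.8% for mt-Nd4l. It was 62.2% for mt-Nd4 and 51.1% for mt-Co1, 8.19% for mt-Nd2, 7.61% for mt-Nd5 and 1.04% for mt-Rnr2. No shared word was found for mt-Nd1, mt-Nd6, mt-Cytb, mt-Rnr1 or any transfer RNA. For mt-Atp8 none was found either, but its part of the run, the 233 bases at chr1:24614652-24614884, lies between annotated genes and was not searched. The transfer RNAs mt-Ts1, mt-Td, mt-Tk, mt-Tg and mt-Tr also lie in the matched stretch. Between annotated genes the run was not searched for them either. The first 30 bases of 3 copied segments are shown beside their chromosome 1 copies, to show how little there is to tell them apart by. Capitals mark the bases that differ, and the sequences are from GENCODE transcripts on mm10, with the copies on the minus strand.
mt-Co2, chrM:7013-7042: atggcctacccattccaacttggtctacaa
Gm28661, chr1:24615536-24615565: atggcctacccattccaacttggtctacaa
mt-Nd3, chrM:9459-9488: atTaacctgtacactgttatcttcattaat
Gm28438, chr1:24613090-24613119: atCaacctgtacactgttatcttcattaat
mt-Co1, chrM:6381-6410: ggTCtAAcCggaAttgttttatccaactca
Gm29216, chr1:24616168-24616197: ggATtGGcAggaTttgttttatccaactca
Gm28661 had 0 mismatches to mt-Co2 over 681 bases, and the copies of mt-Atp6 (Gm10925, 678 bases), mt-Co3 (Gm28437, 783 bases), mt-Nd4l (Gm10222, 294 bases) and mt-Nd4 (Gm28439, 876 bases) also had 0. Gm28438 differed from mt-Nd3 at 1 of 345 bases, T3C counted from the first base of the gene. Gm29216 matched the last 492 bases of mt-Co1 with 6 mismatches, T1056A, C1057T, A1059G, A1060G, C1062A and A1066T, all at the edge of the copied segment. A further set of copies lies on chromosome 2. Gm13340 there aligned to all 1545 bases of mt-Co1 at 97.6% identity and had 70 to 145 counts per library, Gm13341 shared words with mt-Co2 (44 to 94 counts) and Gm13339 with mt-Nd2 (2 to 13 counts). On chromosome 11, Gm11512 aligned to 663 bases of mt-Co1 at 89.9% identity and shared 5 words with it. It had 53, 93 and 26 counts at days 0, 3 and 5 in the Cry2 knockdown. In Cry1 knockdown cells it had 2, 100 and 7 counts, and in control cells 5, 4 and 14. The 51.1% for mt-Co1 counts words found in any of its copies.

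Library totals ran from 4731020 to 6412279 counts. Levels are in CPM, counts scaled to the library size after TMM correction, and a gene at 0 may still have had up to 3 counts, which is 0.439 to 0.634 CPM. Such limits and all intervals here cover counting error only. The labelled knockdowns were visible in the targeted genes. Cry2 had 7.25, 8.24 and 16.6 CPM at days 0, 3 and 5 in the Cry2 knockdown, against 19.2, 39.6 and 48.8 CPM in control cells. Cry1 had 8.28, 6.64 and 8.11 CPM in Cry1 knockdown cells, against 20.5, 15.8 and 17.4 CPM in control cells. All 6 myoblast markers were counted, with a sum of 3727 to 9072 CPM over the 9 libraries, and the 7 markers of differentiating muscle summed to 207 to 878 CPM at day 0 and to 11376 to 17778 CPM at days 3 and 5. The 4 endothelial markers summed to 0 to 0.881 CPM and the 4 blood markers to 0.335 to 2.03 CPM. Adipocyte markers summed to 0.161 to 2.64 CPM, epithelial markers to 0.888 to 9.61 CPM and cardiac markers to 1.61 to 64.1 CPM. The 4 fibroblast markers, which myoblasts can share, summed to 528 to 5730 CPM, with Thy1 at 0 in all 9 libraries. Of the neuronal list, which summed to 42.5 to 324 CPM, 1 gene, Tubb3, reached 10 counts.

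One library stood apart from the other 8 before any comparison was made. In the Cry2 knockdown at day 0 the 6 protein-coding genes that lie whole inside the copied stretch had 11723 counts together, against 79 to 176 counts in each of the other libraries. They took 16.5% of all mitochondrial counts there, and 0.127% to 0.177% elsewhere. mt-Co2, a core subunit of cytochrome c oxidase, had 3784 counts in that library and 28 to 61 in the other 8. mt-Co3, another core subunit of that enzyme, had 3474 counts against 26 to 60. mt-Atp6, the subunit of ATP synthase that forms part of its proton channel, had 3176 counts against 17 to 39, and mt-Atp8, its small partner in the membrane part, had 678 counts against 4 to 12. The complex I subunit mt-Nd3 had 273 counts against 0 to 5, and mt-Nd4l, also of complex I, had 338 counts against 1 to 10. In CPM, mt-Co2 was 71.2, mt-Co3 69.8, mt-Atp6 98.2, mt-Atp8 65.8 and mt-Nd4l 77.3 times the median of the other 8 libraries. For mt-Nd3 no ratio is given, since its median there is below the level that a count of 0 allows. mt-Atp8 and mt-Atp6 overlap by 43 bases at chrM:7927-7969, so part of their reads belongs to both genes.

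**Figure D1:**
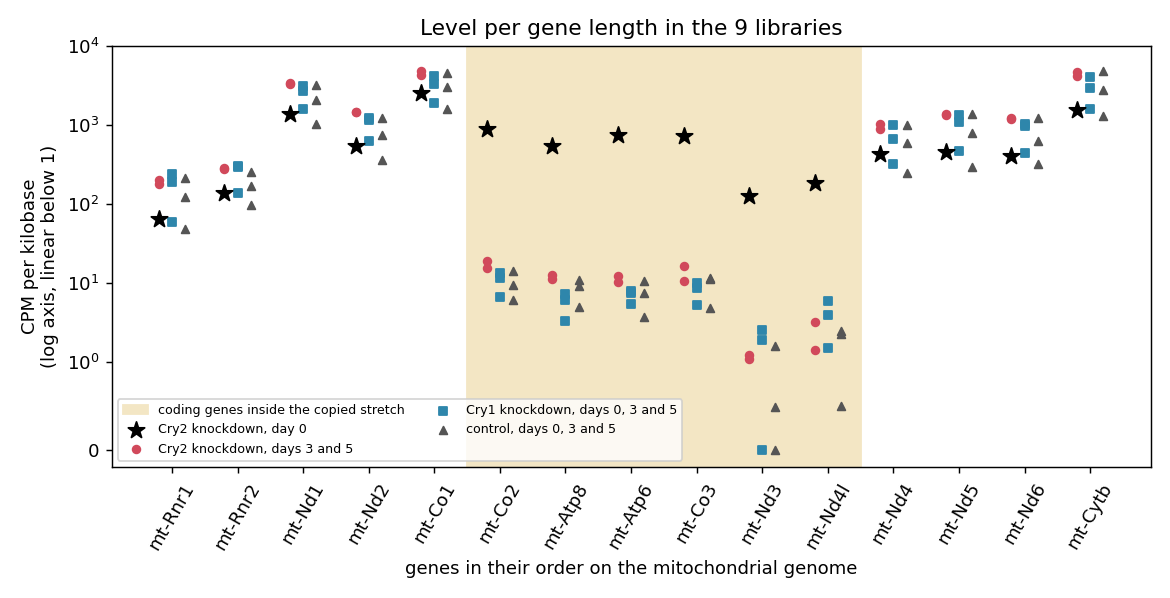
Level of each ribosomal RNA and protein-coding gene in CPM per kilobase (log axis, linear below 1), with genes in their order on the mitochondrial genome and 1 point per library. Inside the shaded copied stretch the Cry2 knockdown at day 0 lies between 126 and 892 CPM per kilobase, far above the other 8 libraries, while outside the stretch it is within their range.

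The chromosome 1 copies did not share this difference. Their 7 genes had 159 counts in the Cry2 knockdown at day 0, 147 in the Cry1 knockdown and 130 in the control at day 0, and 130 to 296 over all 9 libraries. Member and copy added together kept the gap: mt-Co2 with Gm28661 had 3810 counts in the Cry2 knockdown at day 0, against 59 in the Cry1 knockdown and 47 in the control at day 0. The same library was also the highest for mt-Co1, which is copied in its last part on chromosome 1, relative to 5 coding genes with under 10% of their words elsewhere (mt-Nd1, mt-Nd2, mt-Nd5, mt-Nd6 and mt-Cytb). That ratio of counts was 0.841 in the Cry2 knockdown at day 0 and 0.506 to 0.684 in the other 8 libraries. For mt-Nd4, copied in its first part, the ratio was 0.127 there and 0.0865 to 0.115 elsewhere. The serine transfer RNA mt-Ts1, which overlaps the end of mt-Co1 by 3 bases on the other strand, had 21 counts there and 0 to 7 elsewhere. It too lies in the mitochondrial stretch that the chromosome 1 run matches. Nuclear genes with at least 90% of their words elsewhere in the annotation were counted too, with a floor of 50 counts over all libraries. In the Cry2 knockdown at day 0, 4 of 151 were at least 4-fold above the median of the other libraries. In the other 8 libraries 0 to 6 of 151 were. Whether the reads of the Cry2 knockdown library of day 0 were aligned or counted in another way than the rest was not tested.

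**Figure D2:**
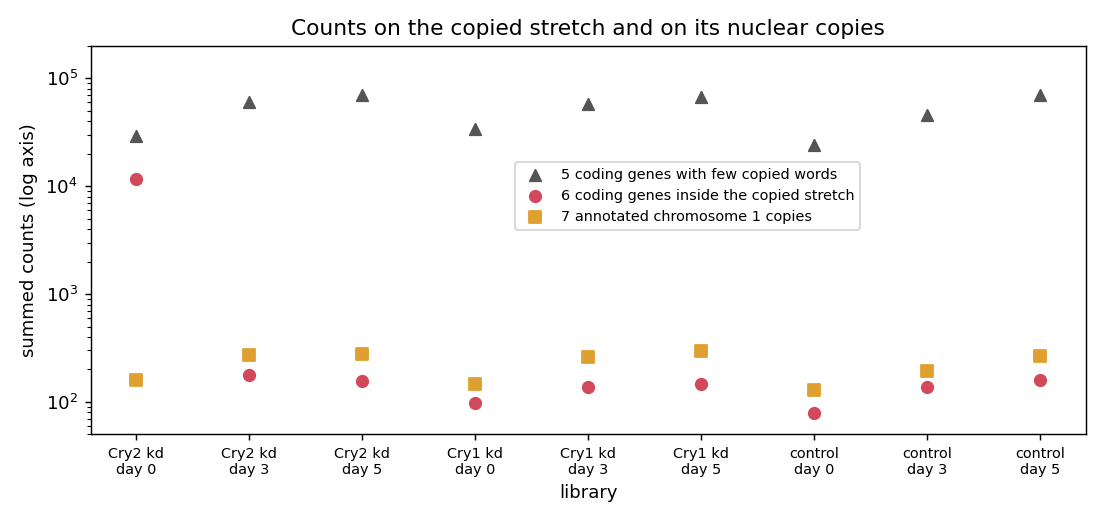
Summed counts (log axis) in each library for 5 coding genes with few copied words, for the 6 coding genes inside the copied stretch and for the 7 annotated chromosome 1 copies. The 6 genes inside the stretch have 11723 counts in the Cry2 knockdown at day 0 and at most 176 elsewhere, while the copies stay between 130 and 296.

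Since counts on the 6 genes of the stretch depended on the library in this way, comparisons of level are given first for the genes outside it. These are 7 protein-coding genes (the 5 above with mt-Co1 and mt-Nd4, which are copied in part) and both ribosomal RNAs. Per gene length, their order was much the same in every library. mt-Co1, mt-Cytb and mt-Nd1 were the 3 highest in 9 of 9 libraries, with mt-Co1 first in 7 and mt-Cytb first in 2, the Cry2 knockdown and the control at day 5. mt-Nd1 came next after them in 9 of 9. In the control at day 5, mt-Cytb had 4861 CPM per kilobase, mt-Co1 4568 and mt-Nd1 3242. The next group, mt-Nd2, mt-Nd5, mt-Nd6 and mt-Nd4, had 994 to 1371 CPM per kilobase in the same library, and the order among them changed between libraries. The ribosomal RNAs were lowest in 9 of 9 libraries, at 251 CPM per kilobase for mt-Rnr2 and 215 for mt-Rnr1 in the control at day 5, in libraries made from polyA RNA.

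The mitochondrial share of all counts was larger at days 3 and 5 than at day 0 in all 3 genotypes. It was 1.22% (exact Clopper-Pearson 95% interval 1.21 to 1.23), 2.21% and 2.07% at days 0, 3 and 5 in the Cry2 knockdown, where the day 0 value includes the stretch and is 1.02% without it. It was 0.921%, 1.64% and 1.92% in Cry1 knockdown cells, and 0.695%, 1.34% and 2.12% in control cells. The share was higher in both knockdowns than in the control at days 0 and 3 and lower at day 5. In bulk RNA, a change in the mix of cells and a change in RNA per cell cannot be told apart.

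All 9 genes outside the stretch rose from the first to the later days, in a fit with additive terms for genotype and for day across the 9 libraries (edgeR quasi-likelihood test, Benjamini-Hochberg adjusted over 13094 genes). mt-Nd5, the largest complex I subunit of the set by coding length, had 830, 2482 and 2444 CPM at days 0, 3 and 5 in the Cry2 knockdown, 852, 2012 and 2415 CPM in Cry1 knockdown cells, and 533, 1457 and 2500 CPM in control cells. The 3 day 0 values lie below all 6 later ones. The log2 fold change of day 3 over day 0 was 1.42 ± 0.16 (SE, adjusted p = 0.000105). mt-Cytb, the mitochondrially encoded subunit of complex III, had 1766, 4815 and 5390 CPM in Cry2 knockdown cells, 1839, 3395 and 4681 CPM in Cry1 knockdown cells, and 1474, 3139 and 5561 CPM in control cells. It rose by 1.14 ± 0.15 on the log2 scale (adjusted p = 0.000251), again with no overlap between day 0 and the later days. mt-Co1, the catalytic subunit of cytochrome c oxidase, had 3946, 7483 and 6639 CPM in Cry2 knockdown cells, 2917, 5153 and 6418 CPM in Cry1 knockdown cells, and 2423, 4721 and 7057 CPM in control cells. Its rise was the smallest of the 9, at 0.90 ± 0.15 (adjusted p = 0.00123). Without the Cry2 knockdown library of day 0 it was 0.99 ± 0.18, and mt-Nd1 had the smallest rise, at 0.95 ± 0.18.

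The other complex I genes followed the same course. mt-Nd1 had 1319, 3243 and 3139 CPM in Cry2 knockdown cells, 1501, 2545 and 2967 CPM in Cry1 knockdown cells, and 996, 1991 and 3102 CPM in control cells. mt-Nd2 had 563, 1510 and 1520 CPM in Cry2 knockdown cells, 642, 1215 and 1263 CPM in Cry1 knockdown cells, and 371, 765 and 1285 CPM in control cells. mt-Nd4 had 596, 1210 and 1430 CPM in Cry2 knockdown cells, 438, 907 and 1361 CPM in Cry1 knockdown cells, and 339, 814 and 1369 CPM in control cells. For each of them the 3 day 0 values were lower than all later ones, and the day 3 over day 0 log2 fold changes were 1.02 ± 0.15, 1.13 ± 0.16 and 1.11 ± 0.13 (adjusted p = 0.00052, 0.000478 and 0.000145). mt-Nd6, encoded on the other strand, had 211, 616 and 632 CPM in Cry2 knockdown cells, 231, 506 and 540 CPM in Cry1 knockdown cells, and 166, 326 and 630 CPM in control cells. It rose by 1.23 ± 0.17 (adjusted p = 0.000381). The library kit does not mark strand, so counts on mt-Nd6 cannot be told from transcripts of the opposite strand.

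**Figure D3:**
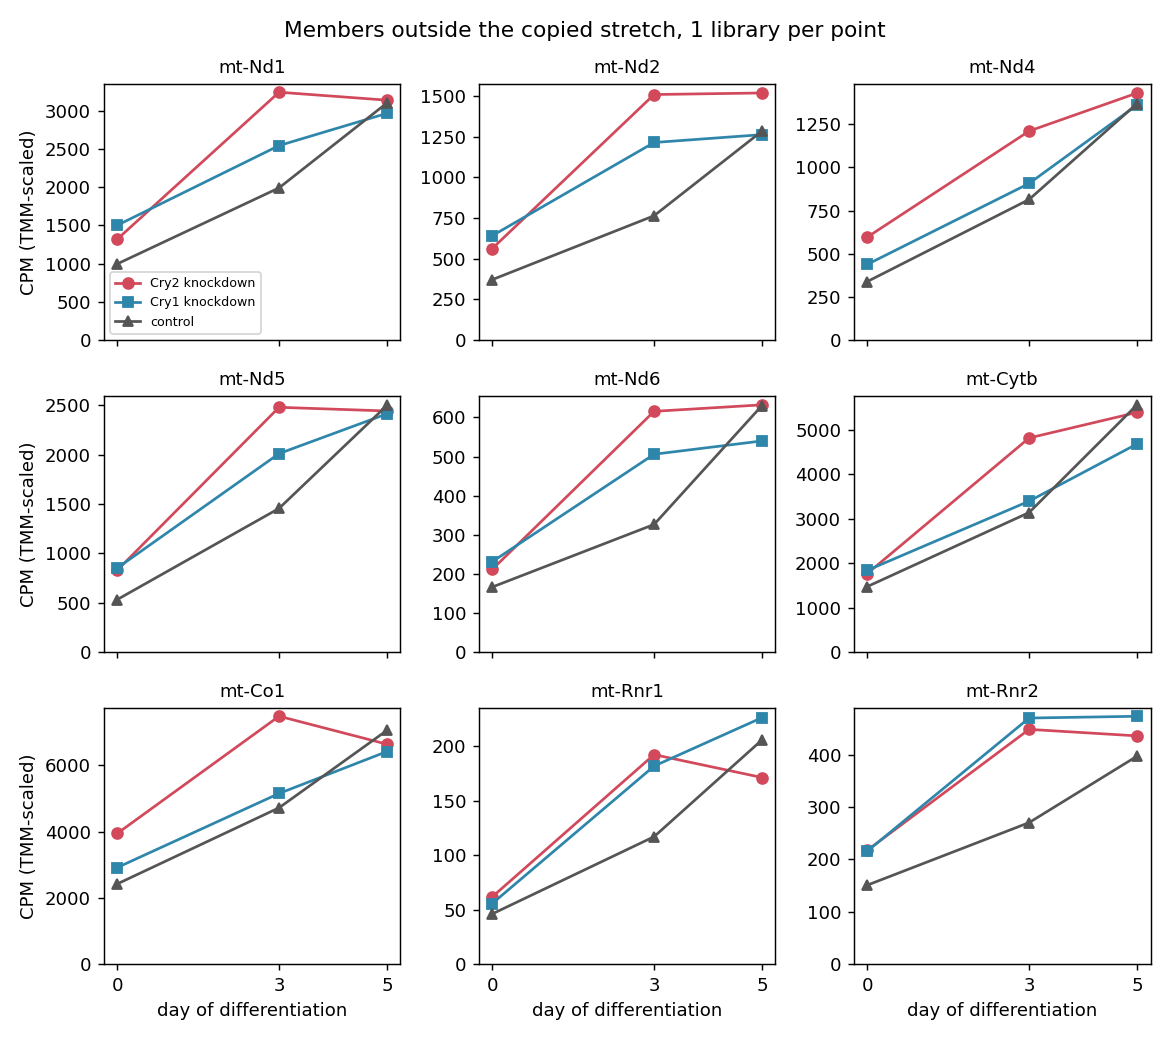
Level in CPM of the 7 protein-coding and 2 ribosomal RNA genes outside the copied stretch at days 0, 3 and 5, with 1 library per point. In every panel the 3 day 0 points lie below the later points, and the control climbs from day 3 to day 5 while the Cry2 knockdown changes less.

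Both ribosomal RNAs moved in the same direction. mt-Rnr1, the small-subunit ribosomal RNA, had 61.7, 192 and 171 CPM in Cry2 knockdown cells, 55.6, 182 and 226 CPM in Cry1 knockdown cells, and 46.1, 117 and 205 CPM in control cells. Its day 3 over day 0 log2 fold change was 1.57 ± 0.16 (adjusted p = 6.58e-05), the largest of the 9. mt-Rnr2, the large-subunit ribosomal RNA, had 218, 448 and 436 CPM in Cry2 knockdown cells, 216, 470 and 473 CPM in Cry1 knockdown cells, and 151, 270 and 397 CPM in the control, and rose by 1.01 ± 0.12 (adjusted p = 0.00012). Neither gene's day 0 values overlapped the later ones.

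Over all members, 20 of 37 passed the filter on low counts. At day 3 against day 0, 13 of the 20 were higher and 1 was lower, where 25.4% of all genes tested were higher and 25.7% lower. The median log2 fold change of the 7 coding genes outside the stretch was 1.13, against 0.01 over all genes tested. The 9 genes outside the stretch kept their call in all 9 fits that left out 1 library. The 1 lower gene was mt-Atp8 (-3.59 ± 1.13, adjusted p = 0.0257), and it turned to 0.09 ± 0.54 (adjusted p = 0.91) without the Cry2 knockdown library of day 0. In that fit of 8 libraries 18 members passed the filter, 14 were higher and 0 lower, where 22.1% of all genes were higher and 22.6% lower. mt-Co2 (0.85 ± 0.27, adjusted p = 0.0334) and mt-Co3 (1.09 ± 0.27, adjusted p = 0.0137) were then among the higher ones, on the few counts given above.

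At day 5 against day 0, 12 of 20 members were higher and 1 lower, where 28.3% of all genes were higher and 27.9% lower. The 9 genes outside the stretch had log2 fold changes of 1.15 to 1.90. The lower gene was again mt-Atp8, at -3.41 ± 1.13 (adjusted p = 0.0284), and at 0.31 ± 0.53 (adjusted p = 0.658) without the Cry2 knockdown library of day 0. Without that library 15 of 18 members were higher and 0 lower, where 26.1% of all genes were higher and 25.6% lower. Between days 5 and 3 the differences were smaller: 2 of 20 members were higher at day 5 and 0 lower, where 14.7% of all genes were higher and 13.2% lower. These were mt-Nd4 (0.54 ± 0.13, adjusted p = 0.0161) and mt-Cytb (0.48 ± 0.15, adjusted p = 0.038), called in 5 and 3 of the 9 fits that left out a library.

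The size of the steps between days varied between the genotypes, which have 1 library per day. The 5 coding genes with few copied words summed to 4689, 12666 and 13125 CPM at days 0, 3 and 5 in the Cry2 knockdown, to 5066, 9673 and 11866 CPM in Cry1 knockdown cells, and to 3540, 7679 and 13079 CPM in control cells. The ratio of the day 3 sum to the day 0 sum was 2.70 in the Cry2 knockdown, 1.91 in the Cry1 knockdown and 2.17 in the control. The ratio of the day 5 sum to the day 3 sum was 1.04 in the Cry2 knockdown, 1.23 in the Cry1 knockdown and 1.70 in the control. These ratios have no test. Markers of differentiating muscle summed to 207, 13477 and 17778 CPM in Cry2 knockdown cells, 878, 16197 and 16853 CPM in Cry1 knockdown cells, and 310, 11376 and 16498 CPM in the control, and their part in the mitochondrial values was not tested. The 4 fibroblast markers summed to 528, 1866 and 3280 CPM in Cry2 knockdown cells, 1658, 3618 and 5730 CPM in Cry1 knockdown cells, and 987, 2610 and 3924 CPM in control cells. Most of these sums was Col1a1, with 485, 1363 and 2568 CPM in Cry2 knockdown cells, 1631, 3444 and 5387 CPM in Cry1 knockdown cells, and 945, 2167 and 3093 CPM in control cells. Dcn rose too but was lowest in Cry1 knockdown cells on each day, with 320 CPM at day 5 against 812 CPM in control cells. Pdgfra was lower at day 3 than at day 0 in all 3 genotypes. The part of the fibroblast markers was not tested either.

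The Cry2 knockdown had higher mitochondrial counts than the control at days 0 and 3, and values on both sides of it at day 5. Within day 0 the 7 coding genes outside the stretch were all higher in the Cry2 knockdown, with log2 ratios of 0.26 to 0.81 and a median of 0.60, or 0.41 over the 5 with few copied words. Within day 3 they were again all higher, at 0.57 to 0.98 with a median of 0.70. Within day 5 the ratios ran from -0.09 to 0.24 with a median of 0.00, and 4 of 7 were above 0. Over all genes tested the medians were -0.01, -0.00 and 0.02. All 9 genes outside the stretch were higher at both days 0 and 3, and 5 of them on all 3 days. Over all genes tested, 25.7% were higher at days 0 and 3, and 16.3% on all 3 days.

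**Figure D4:**
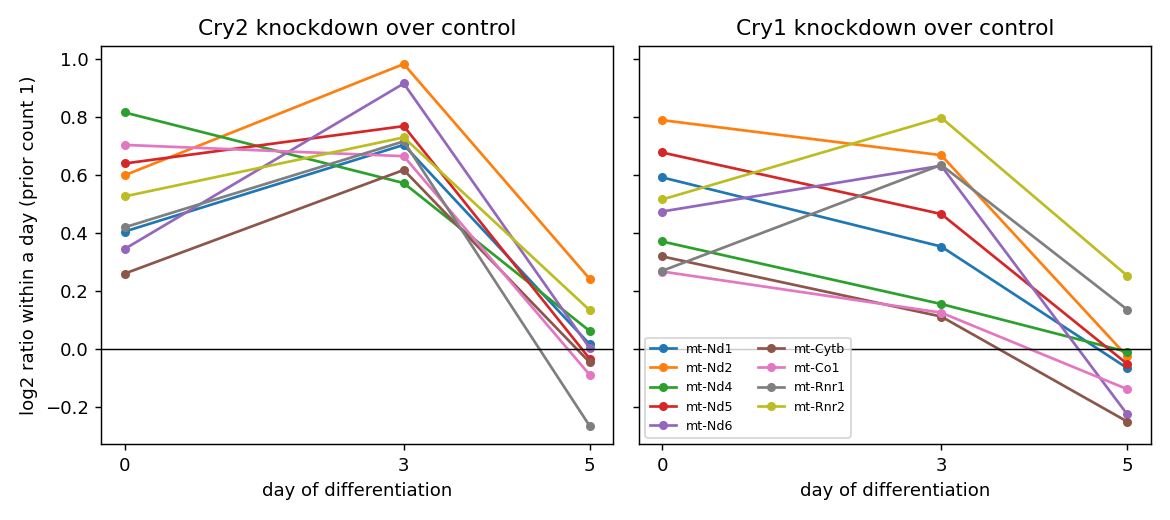
Log2 ratio of CPM (prior count 1) of each knockdown over the control within days 0, 3 and 5, for the 9 genes outside the copied stretch. In both panels all 9 lie above 0 at days 0 and 3 and spread around 0 at day 5.

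No member passed the test of the Cry2 knockdown against the control over the 3 days. Of the 20 tested, 0 were called by edgeR and 14 had an unadjusted p under 0.05, of which 5 were coding genes inside the stretch. Without the Cry2 knockdown library of day 0, 6 of 18 members had such a p, and 0 of 4 coding genes inside the stretch. The share of all genes with such a p is not given here. In the fit with all 9 libraries 0.0458% of all genes were called higher and 0.0382% lower. The DESeq2 Wald test called 1 member, where it called 0.761% of all genes with an adjusted p. With all genes that have a count kept, edgeR called 11 members and 1.34% of all genes. All 20 estimates were above 0. Among them were mt-Nd4l and mt-Tn, which did not pass the filter without the Cry2 knockdown library of day 0. Without that library 18 of 18 estimates were above 0. With all libraries, the estimates of the 7 coding genes outside the stretch ran from 0.28 to 0.60. Their median was 0.43 against -0.00 over all genes tested. The largest was mt-Nd2, a core complex I subunit (0.60 ± 0.16, adjusted p = 0.202), and the smallest mt-Cytb (0.28 ± 0.15, adjusted p = 0.493). Without the Cry2 knockdown library of day 0 the median of these 7 was 0.43 and 0 of 18 members were called, where 0.0461% of genes were higher and 0.0846% lower. The stretch genes mt-Co2, mt-Atp8, mt-Atp6 and mt-Co3 had estimates of 3.43 to 3.91 with all libraries, and of 0.27 to 0.56 without that library. The stretch gene mt-Nd4l had 4.56 ± 1.54 with all libraries and no estimate without that library.

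In the Cry1 knockdown the 7 coding genes outside the stretch were all higher than in the control at day 0 (median log2 ratio 0.47, from 0.27 to 0.79) and at day 3 (median 0.35, from 0.11 to 0.67). At day 5 all 7 were lower, from -0.25 to -0.01 with a median of -0.06. All 9 genes outside the stretch were higher at days 0 and 3, where 31% of all genes tested were, and 2 of them, the ribosomal RNAs, on all 3 days, where 22.1% were. In the fit over the 3 days, 1 of 20 members passed, where 0.932% of all genes were called higher and 1.73% lower. It was mt-Tp, the proline transfer RNA (0.80 ± 0.17, adjusted p = 0.049), and it was called in 0 of the 9 fits that left out a library. mt-Rnr2 narrowly missed the threshold (0.52 ± 0.12, adjusted p = 0.0532). The 7 coding genes had estimates of 0.06 for mt-Cytb to 0.47 for mt-Nd2.

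Between the knockdowns, the 7 coding genes outside the stretch were 0.08 to 0.35 higher in the Cry2 knockdown than in the Cry1 knockdown on the log2 scale, and none of them passed the test. The largest of these was mt-Co1, at 0.35 ± 0.15 (adjusted p = 0.188), and the 5 genes with few copied words had 0.08 to 0.22. Without the Cry2 knockdown library of day 0, mt-Co1 had 0.26 ± 0.18 and mt-Cytb was the largest, at 0.30 ± 0.17. Of the 20 members 1 was called, where 4.24% of all genes were called higher and 3.69% lower. This was mt-Atp8 (4.54 ± 1.16, adjusted p = 0.0462), which lies in the stretch and had 0.99 ± 0.52 (adjusted p = 0.313) without the Cry2 knockdown library of day 0. Both knockdowns were set against the same 3 control libraries, so their values against the control are not independent of each other.

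**Figure D5:**
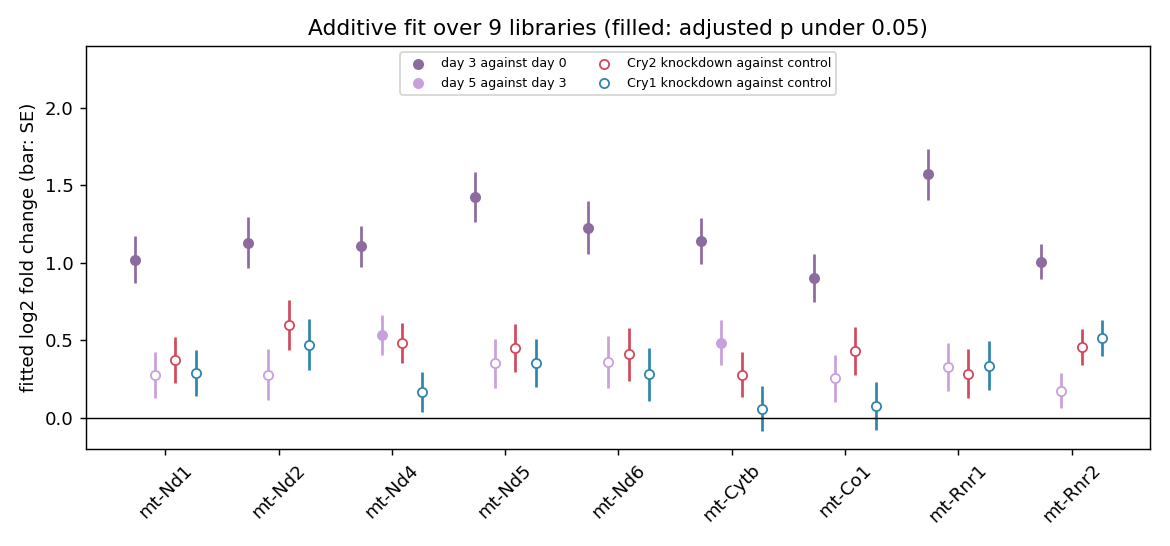
Fitted log2 fold changes with their SE from the additive fit over 9 libraries, for the 9 genes outside the copied stretch; filled points have an adjusted p under 0.05. All 9 pass for day 3 against day 0, 2 for day 5 against day 3 and none for either knockdown against the control.

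A second fit asked whether the difference between days 3 and 5 and day 0 was another one in a knockdown than in the control, with 22 members among 13608 genes tested. For the Cry2 knockdown 4 members had a lower response. These 4 were also the only genes called lower, 0.0294% of all genes tested. They were mt-Co2 (-6.67 ± 0.36, adjusted p = 0.00106), mt-Atp8 (-6.47 ± 0.52, adjusted p = 0.0122), mt-Atp6 (-7.35 ± 0.35, adjusted p = 0.000677) and mt-Co3 (-6.98 ± 0.34, adjusted p = 0.000677). All 4 lie in the copied stretch, and each value rests on the Cry2 knockdown library of day 0, without which this response cannot be fitted. None of the 7 coding genes outside the stretch passed, with estimates of -0.49 (mt-Nd4) to 0.09 (mt-Nd6). For the Cry1 knockdown 0 of 22 members were called by edgeR, 0 by DESeq2 and 0 had an unadjusted p under 0.05, where 0% of all genes were called. The 7 coding genes had estimates of -0.48 to -0.28.

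Transfer RNA genes held 67 to 326 counts per library, 0.15% to 0.329% of mitochondrial counts. Transfer RNAs are short and carry no polyA tail when mature. Of the 22, 5 were at 0 in all 9 libraries (mt-Td, mt-Tk, mt-Tg, mt-Tr and mt-Th), 7 reached 10 counts somewhere and 6 passed the filter. Of those at 0, mt-Td, mt-Tk, mt-Tg and mt-Tr lie in the stretch that the chromosome 1 run matches. mt-Tp had the most counts over the 9 libraries together, though mt-Tl1 had 31 counts against its 30 in the Cry1 knockdown at day 0. It lies at chrM:15356-15422 on the minus strand, next to the control region from which transcription starts, and its 67 bases are printed because it was the member with the largest day 3 over day 0 value.
mt-Tp, chrM:15356-15422: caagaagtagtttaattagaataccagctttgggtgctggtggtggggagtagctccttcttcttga
It had 28, 117 and 148 counts at days 0, 3 and 5 in the Cry2 knockdown, 30, 174 and 165 counts in Cry1 knockdown cells, and 20, 72 and 114 counts in the control. The log2 fold change was 2.43 ± 0.19 at day 3 over day 0 (adjusted p = 1.21e-05) and 2.73 ± 0.19 at day 5 over day 0 (adjusted p = 3.09e-06). The alanine and cysteine transfer RNAs mt-Ta and mt-Tc, also on the minus strand, rose at day 3 over day 0 by 1.41 ± 0.34 and 1.62 ± 0.32 (adjusted p = 0.00749 and 0.00275), on 8 to 55 counts per library. The leucine transfer RNA mt-Tl1 rose by 0.83 ± 0.30 (adjusted p = 0.0417), a call held in 5 of the 9 fits that left out a library. The asparagine and glutamate transfer RNAs mt-Tn (1.46 ± 0.69, adjusted p = 0.107) and mt-Te (0.57 ± 0.83, adjusted p = 0.597) did not pass. Since strand was not kept, counts on these minus-strand genes cannot be told from transcripts that run through them on the other strand.

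Of 6 lists of nuclear genes that transcribe, process and use mitochondrial RNA, 0 genes were called in either knockdown against the control by edgeR. Over all genes, 0.0458% were called higher and 0.0382% lower for the Cry2 knockdown. For the Cry1 knockdown these shares were 0.932% and 1.73%. At day 3 against day 0, the nuclear core and structural subunits of the respiratory chain and ATP synthase were mostly higher too: 28 of 31 were higher and 0 were lower, where 25.4% of all genes were higher and 25.7% lower. Their median log2 fold change was 0.47, against 0.01 over all genes tested. At day 5 against day 3, 2 of 31 were higher and 17 lower, where 14.7% of all genes were higher and 13.2% lower, and the median was -0.28. Of the assembly factors 9 of 22 were higher and 1 lower at day 3 against day 0, where 25.4% of all genes were higher and 25.7% lower. Of the transcription list 1 of 10 was higher and 0 lower, of the replication and maintenance list 2 of 16 were higher and 3 lower, of the RNA processing and stability list 3 of 21 were higher and 2 lower, and of the translation list 3 of 12 were higher and 1 lower. For the RNA processing list and the 2 lists before it, the share that was higher lies below that over all genes, and for the translation list it is near it.

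Among the nuclear genes that act on mitochondrial DNA and RNA, the RNA polymerase and the main packaging factor did not pass the test between days. Polrmt, the mitochondrial RNA polymerase, had 51.7, 52.2 and 59.4 CPM at days 0, 3 and 5 in the Cry2 knockdown, 67.0, 54.6 and 70.1 CPM in Cry1 knockdown cells, and 54.9, 63.2 and 63.2 CPM in control cells. Its day 3 over day 0 log2 fold change was -0.03 ± 0.10 (adjusted p = 0.852). Tfam, which packages mitochondrial DNA and starts its transcription, had -0.19 ± 0.10 (adjusted p = 0.155). The elongation factor Tefm had 0.40 ± 0.16 (adjusted p = 0.0569) and Mterf3 0.19 ± 0.15 (adjusted p = 0.323). Tfb2m was the 1 higher gene of the transcription list, with a rise of 1.31 ± 0.33 (adjusted p = 0.0097). Its day 5 over day 0 value was 1.39 ± 0.33 (adjusted p = 0.0061), where 1 gene of that list was higher and 1 lower. The Cry1 knockdown went the other way after day 3, from 33.9 CPM to 17.3 CPM by day 5. Polg, the catalytic subunit of the mitochondrial DNA polymerase, fell by 0.44 ± 0.09 on the log2 scale at day 3 against day 0 (adjusted p = 0.00374). Twnk, the replicative helicase, rose by 0.43 ± 0.14 at day 5 against day 0 (adjusted p = 0.022), and the single-strand binding protein Ssbp1 had -0.11 ± 0.10 (adjusted p = 0.381). At day 3 against day 0 Twnk had 0.15 ± 0.14 (adjusted p = 0.394) and Ssbp1 0.03 ± 0.10 (adjusted p = 0.831).

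Of the factors that handle the RNA itself, Slirp, which works with Lrpprc to stabilise mitochondrial messenger RNA, rose by 0.46 ± 0.13 at day 3 against day 0 (adjusted p = 0.0151) and fell by 0.44 ± 0.13 at day 5 against day 3 (adjusted p = 0.0347). Lrpprc had 0.09 ± 0.09 and 0.07 ± 0.09 in the same comparisons (adjusted p = 0.442 and 0.588). Pnpt1, an RNA-degrading exonuclease of mitochondria, fell by 0.67 ± 0.13 at day 5 against day 0 (adjusted p = 0.00186). Trmt10c, a subunit of mitochondrial RNase P, which cuts the leading end of transfer RNAs, rose by 0.49 ± 0.12 (adjusted p = 0.00592). The RNA granule protein Grsf1 had -0.20 ± 0.08 (adjusted p = 0.0661). At day 3 against day 0 Pnpt1 had -0.20 ± 0.12 (adjusted p = 0.21), Trmt10c 0.23 ± 0.12 (adjusted p = 0.137) and Grsf1 -0.07 ± 0.08 (adjusted p = 0.494).

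The make-up of the mitochondrial messenger RNA outside the stretch shifted modestly with day. mt-Co1 made up 42.7%, 35.0% and 31.3% of the summed CPM of the 7 coding genes at days 0, 3 and 5 in the Cry2 knockdown, 34.6%, 32.8% and 32.7% in Cry1 knockdown cells, and 38.4%, 35.7% and 32.8% in control cells. mt-Nd5 made up 8.99%, 11.6% and 11.5% in Cry2 knockdown cells, 10.1%, 12.8% and 12.3% in Cry1 knockdown cells, and 8.45%, 11.03% and 11.63% in control cells. mt-Cytb made up 19.1%, 22.5% and 25.4% in Cry2 knockdown cells, 21.8%, 21.6% and 23.8% in Cry1 knockdown cells, and 23.4%, 23.8% and 25.9% in control cells. In all 3 genotypes mt-Co1 held its largest share at day 0 and mt-Nd5 its smallest, while the course of mt-Cytb from day 0 to day 3 differed between genotypes. The Cry2 knockdown library of day 0, with the highest mt-Co1 share, is the one that stood apart. Of the words of mt-Co1, 51.1% also stand in nuclear genes, and what this does to its share was not tested.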

How the data were processed

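The 9 files hold raw counts of reads per gene, as deposited by the authors. The submitters' processing notes name the build mm10 and CASAVA 1.8, HISAT2 2.0.2, Subread and featureCounts 1.4.6. Their settings, including the treatment of reads that align in several places, are not given in the sources used here. The library kit is per the labels' protocols.

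From these counts, TMM factors and quasi-likelihood F tests were computed with edgeR 4.0.16 (R 4.3.3, limma 3.58.1) over genes kept by filterByExpr, and a gene was called at an adjusted p (Benjamini-Hochberg) under 0.05. Genotypes and days were compared with additive terms over 9 libraries, which leaves 4 residual degrees of freedom for 13094 genes. The differentiation response was tested as genotype by stage with a shared day 5 term, which leaves 2 for 13608 genes. SE is the absolute log2 fold change over the square root of F. The fits were tested on simulated data. DESeq2 1.42.0, RLE size factors, no filter, scaling without the members and their copies, the 6 libraries compared, no second term and leaving out each library were alternatives.

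Words of 50 bases shared with a member, on either strand, were looked for in the longest GENCODE transcript per gene; 47223 of 47728 genes in the files matched an annotated identifier. A search of the whole nuclear genome had been planned, but no genome sequence was used here. Per-length values divide CPM by annotated exon bases. Python 3.11.15, numpy 2.4.6, pandas 2.3.3, scipy 1.17.1 and matplotlib 3.10.9 did the rest.

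Members and lists were chosen with earlier results of these data known, so no list is independent evidence. All protein-coding and ribosomal RNA members and each transfer RNA member that passed the filter are named, with 12 nuclear genes of fixed choice whatever they did. Tfb2m is named besides, because it was called at day 3 against day 0.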

Additional observations from a re-analysis of the deposited data

Results flagged for a closer look

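The differentiation response differed between the Cry2 knockdown and the control, by the interaction test in edgeR over 9 libraries, for 4 members: mt-Co2 (log2 difference -6.67), mt-Atp8 (-6.47), mt-Atp6 (-7.35) and mt-Co3 (-6.98). All 4 lie in the stretch copied on chromosome 1. Each had 678 to 3784 counts in the Cry2 knockdown at day 0 and 4 to 61 counts in the other 8 libraries, so each value rests on 1 library. The response cannot be fitted without it.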

How the results depend on the processing

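The rise of the 9 members outside the copied stretch at day 3 and at day 5 against day 0 kept its direction and call without each library in turn. Without each library in turn, the log2 fold change of mt-Atp8, day 3 against day 0, ran from -4.79 to 0.0854, and that of mt-Atp8, day 5 against day 0, from -4.58 to 0.306; both upper ends came without the Cry2 knockdown library of day 0. Members called in the Cry2 knockdown against the control were 0, but 11 with all genes that have a count (1.34% of all genes called) and 1 by DESeq2 (0.761%); the cause was not tested. In the Cry1 knockdown against the control they were 1, but 3 with all genes (3.91%), and 0 with RLE, the 6 libraries compared or no day term, and 0 to 1 without each library. Cry2 knockdown against Cry1 knockdown gave 1, but 7 with all genes (6.5%), and 0 outside the stretch, with no day term or by DESeq2, and 0 to 1 without each library. Day 5 against day 3 gave 2, but 0 with no genotype term and 0 to 3 without each library. The Cry2 knockdown's response gave 4, and 0 outside the stretch. Within day 0, the median log2 ratio of the Cry2 knockdown over the control for all 13 coding members was 0.815, and 0.502 or 0.599 over those with under 50% of their words elsewhere or outside the stretch. Over members with under 50% of their words elsewhere, which drops mt-Co1, the share of counts at days 0, 3 and 5 was 0.544%, 1.34% and 1.30% in Cry2 knockdown cells, 0.565%, 1.03% and 1.19% in Cry1 knockdown cells, and 0.399%, 0.796% and 1.31% in control cells; outside the stretch, the Cry2 knockdown at day 0 had 1.02%. Choices about the stretch were made after seeing the data. No paired analysis was possible because each genotype and day has 1 library with no replicate number in the labels; the genotype comparisons hold a day term, which sets libraries of 1 day against each other. Counts are low for the transfer RNA genes, of which 15 of 22 had under 10 in every library.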
